A study of Mus musculus with 32 samples.

Results

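Old bladders from D+Q-treated mice were compared with bladders of untreated old mice, 6 against 6, which are 12 of the 32 bladders of the series, and the members were chosen by those group labels alone. All of the mice were female C57BL/6 animals of 26 months from an aging colony. The D+Q group had been given dasatinib at 5 mg/kg/day together with quercetin at 50 mg/kg/day by oral gavage in courses of 3 consecutive days, repeated monthly from 21 to 26 months of age, and was rested after the last dose. The untreated group had no gavage. Bladders of 4 vehicle-treated mice, gavaged in the same courses with the Phosal, PEG and ethanol carrier, and of 5 water-gavaged mice, for which the methods can be read as giving the same months, came from mice of the same age. They are given beside the results because the drugs, the carrier and the gavage itself cannot be told apart by D+Q-treated against untreated bladders alone. Each library held the total RNA of 1 whole bladder, so fewer cells of a type and less RNA per cell cannot be told apart in any value below.

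Dasatinib is an inhibitor of SRC-family, ABL and other tyrosine kinases, and quercetin is a plant flavonol with many reported protein targets. The pair is used as a senolytic, that is, to remove senescent cells, which stop dividing, hold cyclin-dependent kinase inhibitors such as p16 (Cdkn2a) and secrete cytokines and proteases. The aged mouse bladder is also known for clusters of B and T lymphocytes in its wall, which express lymphoid chemokines, MHC class II and immunoglobulin genes.

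The tissue label was checked first. All 14 defining markers of urothelium, detrusor muscle, fibroblasts and endothelium were present in each of the 12 bladders at 31.4 TPM or more (a relative abundance corrected for exonic length). Upk1a, a uroplakin of the umbrella cell membrane, was at 2840 to 3690 TPM, and the endothelial cadherin Cdh5, the lowest marker, was at 31.4 to 40.2 TPM. None of the 14 markers had an unadjusted p under 0.05 between the groups, and their log2 fold changes (D+Q-treated over untreated) lay between -0.10 and 0.16. Summed counts were 29098617 to 46477640 per D+Q-treated bladder and 30757033 to 52650259 per untreated bladder, and 3 counts, taken as the floor of detection, equalled 0.0645 to 0.103 CPM and 0.0570 to 0.0975 CPM. These floors cover counting error only. No sequencing batch is given by the labels or methods, so no value could be computed within batches. Nothing in the labels says more of the replicates than that each was a separate bladder.

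No single gene passed the test. With edgeR's quasi-likelihood test, 0 of 17037 genes (0.0%) had an adjusted p under 0.05, and the smallest adjusted p was 0.233. Without adjustment, 1137 genes (6.67%) were lower and 1063 (6.24%) were higher in D+Q-treated bladders at p under 0.05, and the median log2 fold change over all tested genes was 0.0020. DESeq2 run on the same genes gave 154 lower (0.904%) and 31 higher genes (0.182%) at an adjusted p under 0.05. It gave no adjusted p for 1353 of the genes, which its shares of 17037 count as not called. All 6 D+Q-treated bladders lay below all 6 untreated bladders for 61 genes (0.358%) and above them for 41 genes (0.241%). These shares are the background against which each gene list below is read. Over 46 lists of genes, the lower and higher members were unevenly placed. Of 206 tested genes in the 16 immune lists, 115 were lower and 0 were higher at unadjusted p under 0.05, while of 278 genes in 11 lists of general cell processes 25 were lower and 115 were higher. The 11 tissue lists, with 134 tested genes, had 9 lower and 9 higher.

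The gavaged controls were fitted in the same way, and since the fits share bladders, their values are set side by side only. Vehicle-treated against untreated bladders gave 0 of 17440 genes (0.0%) at an adjusted p under 0.05 and, without adjustment, 657 lower (3.77%) and 807 higher (4.63%). Water-treated against untreated bladders gave 173 of 17250 genes (1.0%) at an adjusted p under 0.05, with 1403 lower (8.13%) and 1357 higher (7.87%) without adjustment. D+Q-treated against vehicle-treated bladders gave 0 of 17267 genes (0.0%), with 254 lower (1.47%) and 468 higher (2.71%) without adjustment. D+Q-treated against water-treated bladders gave 0 of 17161 genes (0.0%), with 548 lower (3.19%) and 794 higher (4.63%) without adjustment. For the 24 leading genes of D+Q-treated against untreated bladders, named further on, edgeR's adjusted p was 0.233 to 0.246 and that of DESeq2 was 0.000344 to 0.0355.

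**Figure D1:**
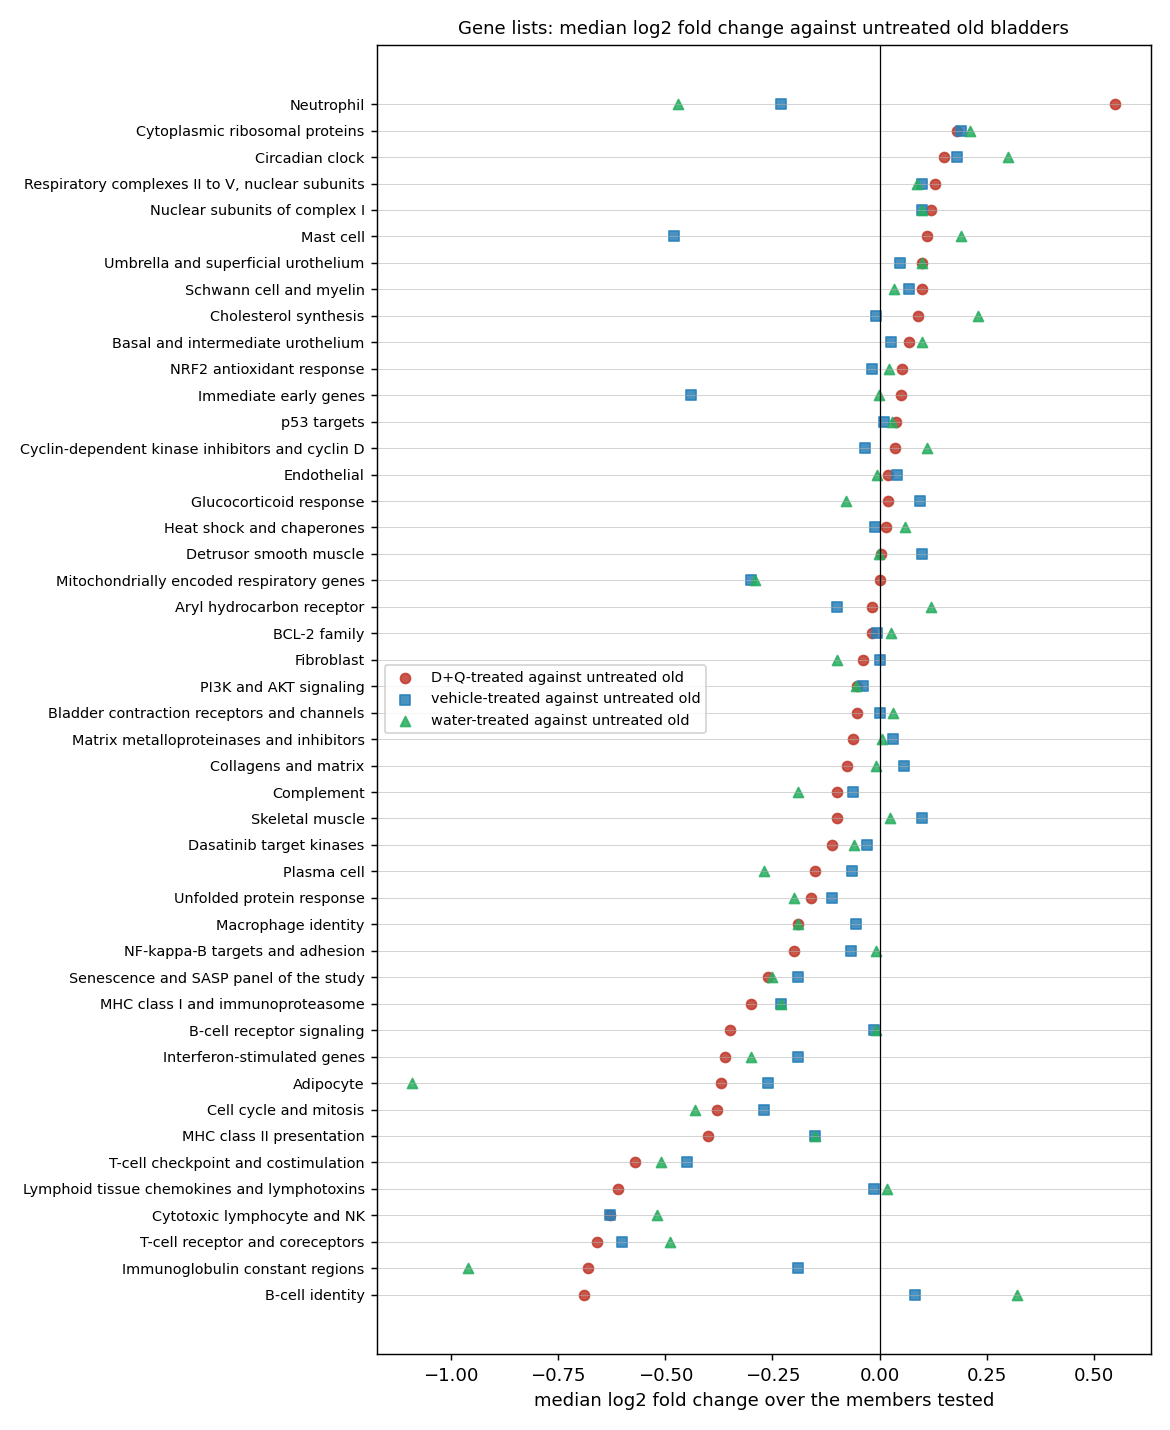
Median log2 fold change over the tested members of 46 gene lists (vertical axis, ordered by the D+Q comparison) for D+Q-treated (circles), vehicle-treated (squares) and water-treated (triangles) against untreated old bladders, which all share the 6 untreated bladders. B-cell identity is at -0.69 for D+Q, 0.082 for vehicle and 0.32 for water, whereas cytoplasmic ribosomal proteins are at 0.18, 0.19 and 0.21.

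Interferon-stimulated genes were lower after D+Q as a group. These are antiviral and GTPase genes that cells switch on in response to interferons. Of 25 tested members, 20 were lower and 0 were higher at unadjusted p under 0.05, beside 6.67% of all genes, the median log2 fold change was -0.36, and DESeq2 called 12 of them lower. The list score, the mean of log2(CPM + 0.1) over members, ran from 3.87 to 4.13 (median 3.98) in D+Q-treated bladders and from 4.14 to 4.64 (median 4.29) in untreated bladders. The D+Q-treated bladders were all below the untreated ones, by a narrow gap, and this was the only 1 of the 46 lists whose scores did not overlap. Leaving out any single bladder left 18 to 22 members lower. Vehicle-treated bladders spanned 3.70 to 4.56 and water-treated bladders 3.84 to 4.16, with median log2 fold changes against untreated bladders of -0.19 (3 of 25 lower) and -0.30 (16 of 25 lower). Against the vehicle, D+Q gave a median of -0.13 with 3 members lower, and against water -0.088 with 2 members lower. Single vehicle-treated bladders left out gave -0.37 to -0.10 for vehicle against untreated bladders, with 0 to 16 members lower, and -0.21 to 0.045 for D+Q against vehicle, with 1 to 9 lower, where the value above 0 was without vehicle replicate 3.

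Zbp1, a sensor of left-handed nucleic acids, was at 9.86, 14.6 and 19.9 normalized CPM (lowest, median and highest) in untreated bladders and at 6.51, 8.84 and 10.6 in D+Q-treated bladders. Of the D+Q-treated bladders, 5 lay below every untreated one, and the log2 fold change was -0.76 (SE 0.149, adjusted p = 0.233, exact permutation p = 0.00433). Oasl2, a 2'-5'-oligoadenylate synthetase-like protein, was at 40.8, 45.3 and 57.9 CPM in untreated and 32.9, 35.9 and 38.3 CPM in D+Q-treated bladders, without overlap (log2 fold change -0.42, SE 0.0826). Oas2, a synthetase that activates RNase L, also separated the groups, at 17.4, 20.4 and 23.6 CPM in untreated and 12, 14.3 and 17 CPM in D+Q-treated bladders (log2 fold change -0.50, SE 0.109). Ifi27l2a, the member with the highest TPM, was at 30.3, 38.8 and 45.3 CPM against 24.4, 27.6 and 31.3 CPM, with a small overlap and a log2 fold change of -0.43 (SE 0.10). The 5 members that did not pass included Isg15 (-0.054), a ubiquitin-like protein, and Rsad2 (0.043), the antiviral enzyme viperin.

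The sequence by which interferon-activated factors bind such genes, the interferon-stimulated response element, was looked for in RefSeq promoters (build GRCm38.p6, 250 bases before to 50 after a start site), as GAAANNGAAA on both strands with overlapping matches kept. Of 19 list members with a promoter in that table, 12 (63.2%) held a match, beside 3.99% of all 27025 genes with promoters. Because the list was made of genes that interferons switch on, a high share was built into its choice and is no result about D+Q. Isg15 and Rsad2, which did not pass, were among the members with a match. The 3 members with a match and the smallest p are shown here, with every match in capitals. They are Ddx58 (RIG-I, chr4:40239776-40240075 (minus strand)), Ifih1 (MDA5, chr2:62646206-62646505 (minus strand)), both sensors of viral RNA, and Oas1a (chr5:120907476-120907775 (minus strand)), and their log2 fold changes were -0.20, -0.24 and -0.52.
Ddx58: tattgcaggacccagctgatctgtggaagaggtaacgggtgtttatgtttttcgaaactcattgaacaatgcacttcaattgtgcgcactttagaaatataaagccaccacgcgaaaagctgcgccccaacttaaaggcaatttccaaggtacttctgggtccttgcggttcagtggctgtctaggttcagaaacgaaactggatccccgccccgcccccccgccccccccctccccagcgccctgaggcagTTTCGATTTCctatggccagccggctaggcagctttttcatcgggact
Ifih1: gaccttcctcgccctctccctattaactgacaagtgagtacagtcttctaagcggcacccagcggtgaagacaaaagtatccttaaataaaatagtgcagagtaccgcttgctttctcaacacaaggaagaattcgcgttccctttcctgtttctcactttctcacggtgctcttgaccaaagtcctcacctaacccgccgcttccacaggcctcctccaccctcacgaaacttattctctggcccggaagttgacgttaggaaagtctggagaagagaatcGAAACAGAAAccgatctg
Oas1a: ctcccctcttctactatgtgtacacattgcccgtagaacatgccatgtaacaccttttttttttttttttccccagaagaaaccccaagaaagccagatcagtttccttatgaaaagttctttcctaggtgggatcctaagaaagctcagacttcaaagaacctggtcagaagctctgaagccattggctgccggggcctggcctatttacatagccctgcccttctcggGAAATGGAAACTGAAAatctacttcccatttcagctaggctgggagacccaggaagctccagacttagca
Ddx58 holds its match on the reverse strand just after the start site, and Oas1a holds 2 overlapping matches just before it. A match describes these letters and is no measure of binding.

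Antigen presentation genes were lower with the interferon-stimulated ones. Of 11 tested MHC class I and immunoproteasome genes, 9 were lower and 0 higher at unadjusted p under 0.05 (median log2 fold change -0.30), and leaving out single bladders left 6 to 10, the 6 without untreated replicate 3. Tap1, the peptide transporter of the endoplasmic reticulum, was at 58.8, 69.3 and 92.1 CPM in untreated and 49.8, 51.8 and 60.6 CPM in D+Q-treated bladders (log2 fold change -0.43, SE 0.0975, adjusted p = 0.233), with 5 of 6 below every untreated bladder. Its exons overlap those of Psmb9 on the other strand, an immunoproteasome subunit at -0.42 (SE 0.108), and the strand setting of the counting is not given in the sources used here, so reads of the pair may be mixed. B2m, the class I light chain and the list's highest gene by TPM, was at 632, 712 and 1050 CPM against 596, 631 and 690 CPM (log2 fold change -0.30, SE 0.116). The list's median was -0.23 in vehicle-treated and -0.23 in water-treated against untreated bladders, and -0.036 and -0.040 in D+Q-treated against vehicle-treated and water-treated bladders. Without vehicle replicate 3 the vehicle median was -0.51 and D+Q against vehicle was 0.18, without vehicle replicate 1 they were -0.12 and -0.16, and without water replicate 2 D+Q against water was 0.0032.

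For MHC class II, the set that presents peptides to CD4 T cells, 9 of 10 tested genes were lower and 0 higher, with a median of -0.40, and 7 to 9 were lower without any single bladder. Ciita, the class II transactivator, was at 28.5, 36.9 and 49.6 CPM in untreated and 15.9, 25.3 and 34.2 CPM in D+Q-treated bladders (log2 fold change -0.60, SE 0.176, adjusted p = 0.277). The groups overlapped in 1 D+Q-treated bladder. H2-DMa, which helps to load peptides, was at -0.39 (SE 0.0935) and Cd74, the invariant chain and highest member by TPM, at -0.39 (SE 0.127). The medians for vehicle and water against untreated bladders were -0.15 and -0.15, with 0 members lower in each, and D+Q against vehicle and against water gave -0.25 and -0.26, also with 0 members lower. Without vehicle replicate 3 the vehicle median was -0.63 and that of D+Q against vehicle was 0.22, without vehicle replicate 1 they were 0.088 and -0.49, and without water replicate 2 the water median was -0.32.

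T-cell genes were lower in nearly every member. Of 17 tested T-cell receptor and coreceptor genes, 15 were lower and 0 higher (median log2 fold change -0.66), 11 without D+Q replicate 6 and up to 17 without other single bladders. Scores were 1.55 to 2.57 (median 2.09) after D+Q and 2.21 to 3.47 (median 2.81) in untreated bladders, and 5 of 6 D+Q-treated bladders were below every untreated one. Cd3e, a signaling chain of the receptor, was at 5.75, 7.66 and 11.3 CPM in untreated and 3.22, 5.04 and 6.01 CPM in D+Q-treated bladders (log2 fold change -0.65, SE 0.173, adjusted p = 0.264). Trac, the alpha chain constant region, was at -0.89 (SE 0.245), Cd2, an adhesion receptor, at -0.70 (SE 0.182), and Trbc2, the highest member by TPM, at -0.56 (SE 0.274). The coreceptor chains Cd8a and Cd4 were at -1.25 (SE 0.489) and -0.60 (SE 0.255), and Cd8b1 was at -1.08 (SE 0.534) without passing.

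The genes of T-cell checkpoints and costimulation followed, with 11 of 12 lower and a median of -0.57. That count was 7 without D+Q replicate 3, without D+Q replicate 5 or without D+Q replicate 6. Cd274, the PD-1 ligand PD-L1, was at 11, 13.5 and 14.2 CPM in untreated and 7.87, 8.93 and 11.2 CPM in D+Q-treated bladders (log2 fold change -0.48, SE 0.102, adjusted p = 0.233). Tigit, an inhibitory receptor, was at -1.11 (SE 0.320), Tox, a factor of chronically stimulated T cells, at -0.55 (SE 0.161), and Btla at -0.69 (SE 0.306). Of 12 cytotoxic and natural killer genes, 6 were lower and 0 higher (4 without untreated replicate 3), and the lower ones were Nkg7, Gzmb, Gzmk, Prf1, Eomes and Ccl5, which cytotoxic T cells share. The natural killer receptors Ncr1, Klrd1 and Klrb1c were at 0.40 (SE 0.353), 0.22 (SE 0.198) and 0.0072 (SE 0.410). Gzmb, a serine protease of killer granules, was at 0.922, 1.99 and 3.93 CPM against 0.797, 0.989 and 1.20 CPM (log2 fold change -1.14, SE 0.342).

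In the gavaged controls the medians of the T-cell lists were also below 0. Medians of the receptor list were -0.60 for vehicle (0 of 17 lower) and -0.49 for water (4 of 17 lower), and D+Q against vehicle and against water gave -0.14 and -0.11 with 0 members lower in each. The vehicle median depended on single bladders, at -1.15 without vehicle replicate 3 and -0.32 without vehicle replicate 1, whose T-cell scores were 3.24 and 0.54. D+Q against vehicle ran from -0.45 to 0.40 when single vehicle-treated bladders were left out, and D+Q against water from -0.25 to 0.17, the highest values without vehicle replicate 3 and water replicate 2. The checkpoint list was at -0.45 with vehicle (2 of 12 lower) and -0.51 with water (5 of 12 lower). The cytotoxic list, at -0.63 with D+Q, was at -0.63 with vehicle (1 of 12 lower) and -0.52 with water (3 of 12 lower). D+Q against vehicle and water gave 0.054 and 0.023 for the cytotoxic list.

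**Figure D2:**
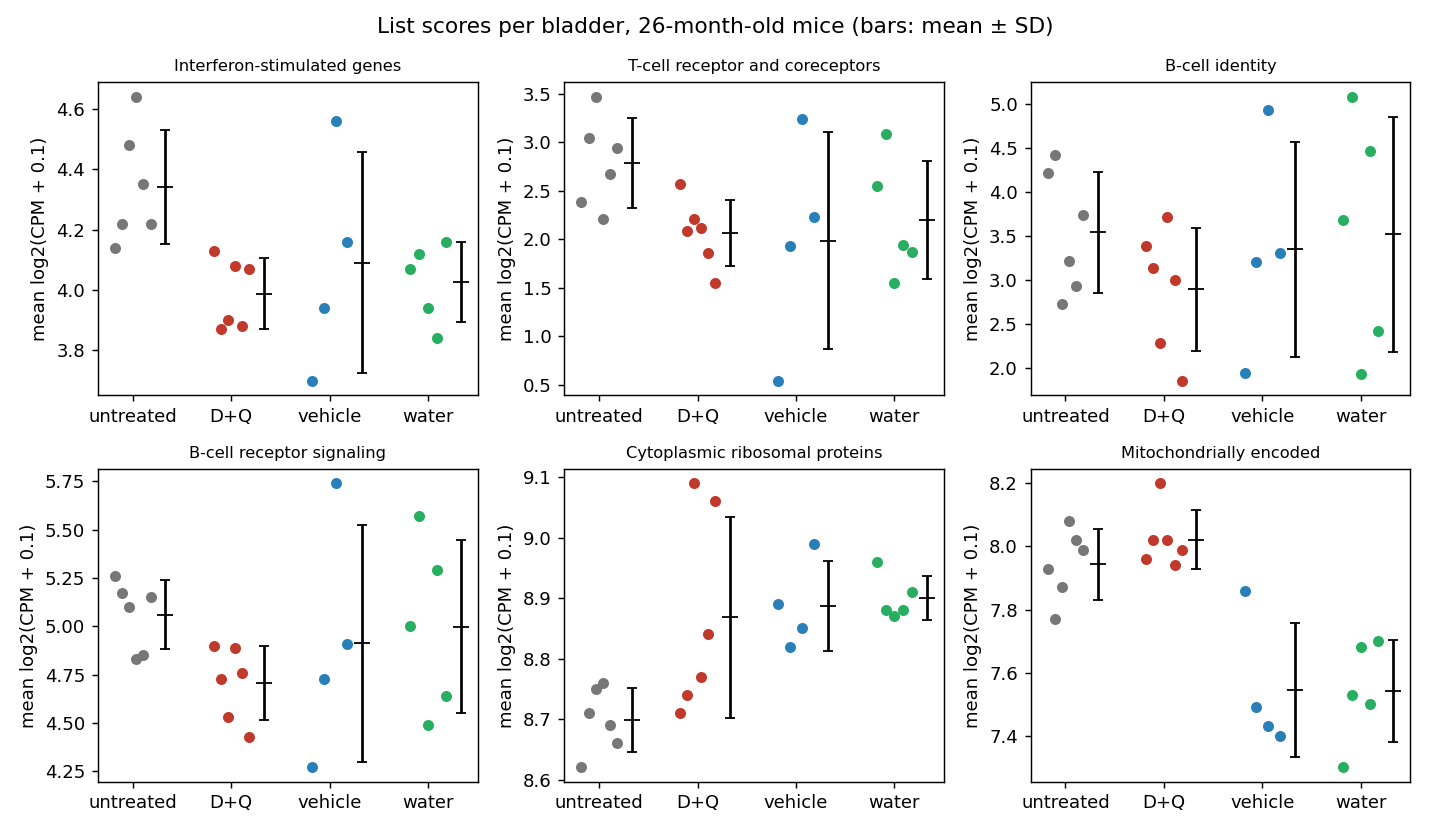
Mean log2(CPM + 0.1) over the members of 6 gene lists (vertical axes, each with its own range), 1 point per bladder in 6 untreated, 6 D+Q-treated, 4 vehicle-treated and 5 water-treated old bladders, with bars for mean ± SD. Interferon-stimulated gene scores of D+Q-treated bladders (3.87 to 4.13) lie below those of untreated bladders (4.14 to 4.64), and the scores of mitochondrially encoded genes are 7.94 to 8.20 with D+Q against 7.30 to 7.86 in the other gavaged bladders.

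B-cell genes were lower after D+Q and were not lower in the gavaged controls taken whole. Of 15 tested B-cell identity genes, 10 were lower and 0 higher at unadjusted p under 0.05, and the median log2 fold change was -0.69, beside 0.082 with vehicle and 0.32 with water, where 0 members passed in either direction. D+Q against vehicle gave -0.86 with 2 members lower, and D+Q against water gave -1.14 with 5 members lower. Scores were 1.85 to 3.71 (median 3.06) after D+Q, 2.72 to 4.41 (median 3.47) in untreated, 1.94 to 4.93 (median 3.25) in vehicle-treated and 1.93 to 5.08 (median 3.68) in water-treated bladders, so all groups overlapped widely, and the vehicle median score lay below the untreated one although its median fold change was above 0. Middle-aged bladders, of 10 months, were at -0.41 to 0.50.

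These B-cell values rested on few bladders. The count of 10 lower members was 2 without D+Q replicate 3, 2 without D+Q replicate 6, 2 without untreated replicate 1, 2 without untreated replicate 2, 3 without D+Q replicate 5, 4 without D+Q replicate 2 and 5 without untreated replicate 6, while the median was between -0.88 and -0.51. In the vehicle comparisons, vehicle replicate 3 decided the direction: without it, vehicle against untreated went from 0.082 to -0.84 and D+Q against vehicle from -0.86 to 0.13. Without water replicate 2, D+Q against water went from -1.14 to -0.48 and water against untreated from 0.32 to -0.17.

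Fcmr, the receptor for IgM, was at 6.57, 9.17 and 18.1 CPM in untreated and 4.02, 5.03 and 8.07 CPM in D+Q-treated bladders (log2 fold change -0.87, SE 0.243, adjusted p = 0.269, exact permutation p = 0.0108). Of the D+Q-treated bladders 4 lay below every untreated one, and vehicle-treated bladders were at 7.03 to 36.1 CPM. Spib, a transcription factor of B cells and plasmacytoid dendritic cells, was at 12.6, 16.0 and 32.6 CPM against 4.31, 10.5 and 14.3 CPM (log2 fold change -1.02, SE 0.332), and Ms4a1, which encodes CD20, was at -0.84 (SE 0.345). Cd79a, the receptor's signaling chain and the highest member by TPM, overlapped more, at 15.2, 25.3 and 44.4 CPM against 4.44, 18 and 26.4 CPM (log2 fold change -0.63, SE 0.379). The IgE receptor Fcer2a, at 0.039, and the complement receptor Cr2, at -0.27, were the members nearest to 0.

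B-cell receptor signaling genes are in part also used by myeloid and T cells. Of 18 tested, 12 were lower and 0 higher (10 to 14 without single bladders, 3 with all 6 groups in a single fit), with a median of -0.35, and scores were 4.43 to 4.90 after D+Q against 4.83 to 5.26. Pik3ap1, an adaptor of PI3-kinase in B cells, was at 19.1, 24.8 and 29.1 CPM in untreated and 13.8, 17.3 and 18 CPM in D+Q-treated bladders, without overlap (log2 fold change -0.58, SE 0.118, adjusted p = 0.233). Pik3cd, the leukocyte PI3-kinase subunit, was at -0.49 (SE 0.115) and Vav1, an exchange factor of blood cells, at -0.56 (SE 0.142), while Grb2, the highest member by TPM and expressed in most cells, was at -0.045 (SE 0.0302). Blnk, the B-cell linker (-0.28), held the octamer ATGCAAAT, a sequence bound by OCT factors in B-cell genes, which 2 of 14 genes of this list with a promoter held, beside 0 of 11 B-cell identity genes and 1.97% of all genes. Its promoter (chr19:40994172-40994471 (minus strand)) is shown with the match, on the reverse strand, in capitals.
Blnk: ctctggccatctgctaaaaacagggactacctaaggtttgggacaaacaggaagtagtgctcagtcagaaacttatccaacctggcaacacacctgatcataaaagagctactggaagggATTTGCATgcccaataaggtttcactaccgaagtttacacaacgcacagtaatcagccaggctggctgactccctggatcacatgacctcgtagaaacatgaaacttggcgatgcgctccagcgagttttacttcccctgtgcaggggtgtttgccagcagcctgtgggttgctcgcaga
The medians of this list were -0.012 for vehicle and -0.0085 for water against untreated bladders, and -0.35 and -0.33 for D+Q against each, with 0 and 6 members lower. Without vehicle replicate 3, the vehicle values became -0.44 and, for D+Q against vehicle, 0.044.

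Genes of antibody-producing cells did not share this pattern. Of 12 immunoglobulin constant region genes 2 were lower (Ighe and Iglc2), and the median of -0.68 became 0.21 without untreated replicate 6, whose score of 8.37 was far above the other untreated bladders. The D+Q score median, 5.77, was above the untreated 5.53, so median score and median fold change differ in sign. Igkc, the kappa light chain and highest member by TPM, was at 907, 1450 and 5800 CPM against 687, 2230 and 3120 CPM (log2 fold change -0.14, SE 0.452). Reads of closely similar constant regions may be split between genes. Of 12 plasma cell genes 1 was lower, Pim2, a survival kinase, at 11.3, 11.6 and 14.9 CPM against 9.60, 10.2 and 11 CPM without overlap (log2 fold change -0.23, SE 0.0723), and the list's score median was likewise higher after D+Q (4.54 against 4.32) with a median fold change of -0.15.

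Lymphoid tissue chemokines and lymphotoxins, which organize lymphocyte clusters, had 5 of 11 tested genes lower and 0 higher (median -0.61), 3 without D+Q replicate 3, untreated replicate 1 or untreated replicate 2, and 0 with all 6 groups in a single fit. Cxcl13, the chemokine that draws B cells into follicles, was at 10.3, 15.8 and 27.8 CPM in untreated and 7.04, 8.77 and 17.9 CPM in D+Q-treated bladders (log2 fold change -0.80, SE 0.274, adjusted p = 0.310), and 5 of 6 D+Q-treated bladders were below every untreated one. Ccr7, which guides T cells and dendritic cells, was at -0.61 (SE 0.182) and Ltb, lymphotoxin beta, at -0.62 (SE 0.225), while the stromal receptor Ltbr, highest by TPM, was at 0.038 (SE 0.0456). Against the vehicle the list's median was -0.39, and it was 0.13 without vehicle replicate 3.

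Among myeloid and inflammatory lists the differences were smaller. Macrophage identity genes had 4 of 16 lower (median -0.19), led by Cx3cr1, the fractalkine receptor, at 9.47, 11.1 and 16.8 CPM against 5.95, 8.01 and 10.6 CPM (log2 fold change -0.59, SE 0.158), while C1qa, the highest by TPM, was at -0.21 (SE 0.133). That count was 1 without D+Q replicate 3 or D+Q replicate 6 and 2 without untreated replicate 6. The macrophage median was -0.054 with vehicle (0 of 16 lower) and -0.19 with water (2 of 16 lower), and D+Q against them gave -0.16 and -0.020. Complement genes had 3 of 13 lower (median -0.10), with C3 at -0.29 (SE 0.112), Cfb at -0.34 (SE 0.133), C4b at -0.37 (SE 0.152) and Serping1 at -0.055 (SE 0.0575), and the count was 0 without untreated replicate 3. The complement median was -0.063 with vehicle (0 of 13 lower) and -0.19 with water (4 of 13 lower). Nuclear factor kappa B targets and adhesion genes had 8 of 12 lower (median -0.20), 5 without D+Q replicate 6, untreated replicate 2 or untreated replicate 6. Vehicle and water against untreated bladders gave medians of -0.066 and -0.0092, with 0 lower in each. D+Q against vehicle and water gave -0.15 and -0.21, with 0 and 3 lower. Without vehicle replicate 3 the vehicle median was -0.22 and that of D+Q against vehicle was 0.034. Nfkb1, a subunit of that factor, was at 90.3, 92.5 and 96.3 CPM in untreated and 81.4, 86.2 and 88.8 CPM in D+Q-treated bladders without overlap, a difference small in size (log2 fold change -0.12, SE 0.0305). Traf1 was at -0.52 (SE 0.157), Tnfaip3 at -0.30 (SE 0.0972) and Tnfaip2, highest by TPM, at 0.073 (SE 0.0786). No member of the mast cell list (7 tested, median 0.11) or the neutrophil list (3 tested, median 0.55) passed, and the neutrophil genes S100a8 and S100a9 were near the floor, at medians of 0.166 and 0.208 CPM in untreated and 0.425 and 0.530 CPM in D+Q-treated bladders.

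**Figure D3:**
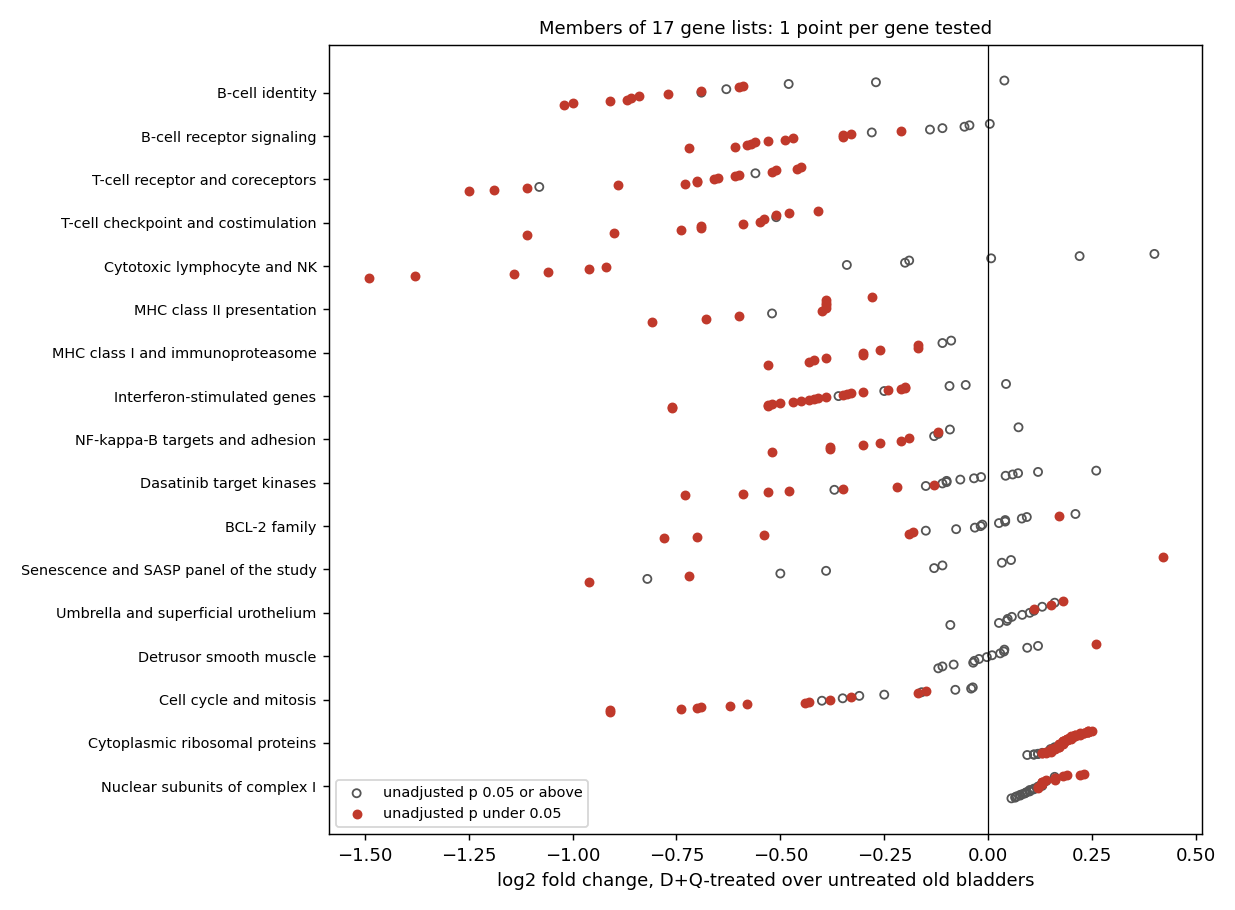
Log2 fold change (horizontal axis, D+Q-treated over untreated old bladders) of every tested member of 17 gene lists, 1 point per gene, filled where the unadjusted p was under 0.05. Nearly all members of the lymphocyte, MHC and interferon lists lie left of 0, the urothelium and detrusor members lie around 0, and all ribosomal protein genes lie right of 0, at up to 0.25.

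The genes with the smallest p, taken without regard to lists, were of the same kinds on the lower side. The 12 lower ones were Trim30a, Tnfsf10, Plek, Zbp1, Oasl2, Gbp9, Pik3ap1, Cybb, Foxo1, Ifi206, Cd274 and Rasgrp1. Trim30a (ENSMUSG00000030921, chromosome 7 of mm10, 104409025 to 104465193), an interferon-inducible ring finger protein, was at 30.7, 33.6 and 35.6 CPM in untreated and 23.5, 24.9 and 29.3 CPM in D+Q-treated bladders without overlap (log2 fold change -0.38, SE 0.0632, adjusted p = 0.233, exact permutation p = 0.00216, the smallest that 6 against 6 allows). It was also lower with vehicle (-0.32) and water (-0.38), and D+Q against vehicle was -0.058. Tnfsf10, the death ligand TRAIL, was at 16.3, 17.9 and 21.2 CPM against 13.5, 13.9 and 15.3 CPM without overlap (log2 fold change -0.37, SE 0.0635).

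Cybb, the catalytic subunit of the phagocyte NADPH oxidase, was at 45.8, 55.6 and 64.5 CPM in untreated bladders. In D+Q-treated bladders it was at 32.6, 39.6 and 44.7 CPM without overlap (log2 fold change -0.50, SE 0.103). Vehicle and water against untreated bladders gave -0.15 and 0.10, values that rested on single high bladders. Vehicle-treated bladders were at 25.1, 38.4, 97.1 and 38.1 CPM, and water-treated bladders at 46.9, 111, 32.8, 65.8 and 36.9 CPM. Plek, a protein kinase C substrate of blood cells, was at -0.58 (SE 0.108) and has exons overlapping Cnrip1 on the other strand. Rasgrp1, a Ras activator of lymphocytes, was at 12.9, 14.2 and 17 CPM against 5.73, 8.87 and 12.5 CPM without overlap (log2 fold change -0.71, SE 0.150). Vehicle-treated bladders were at 5.81, 8.69, 26.0 and 7.33 CPM and water-treated bladders at 7.64 to 20.4 CPM, so some of both also lay below every untreated bladder. Foxo1, a transcription factor of many tissues, was at 52.0, 55.0 and 57.6 CPM against 49.1, 49.9 and 51.2 CPM (log2 fold change -0.14, SE 0.0289), and its groups were apart by a small step. Gbp9 (-0.43, SE 0.0873) and Ifi206 (-0.93, SE 0.195) belong to interferon-inducible families, and exons of Gbp9 overlap Gbp4 and Gbp8 on the same strand.

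The 12 higher genes were Osgin1, Htr1b, Cldn4, Ptpru, Zfp414, Dancr, Emid1, Tbx3os1, Plppr2, Upk3bl, Nradd and Triqk, with log2 fold changes of 0.18 to 0.62. Osgin1 (ENSMUSG00000074063, chromosome 8, 119434124 to 119446256), a target of the antioxidant factor NRF2, was at 77.5, 82.1 and 85.1 CPM in untreated and 86.6, 93.0 and 96.6 CPM in D+Q-treated bladders without overlap (log2 fold change 0.18, SE 0.0351, adjusted p = 0.233), beside 0.0046 with vehicle and 0.11 with water. Cldn4 (ENSMUSG00000047501, chromosome 5, 134945119 to 134946934), a claudin of urothelial tight junctions, was at 166, 172 and 189 CPM against 187, 211 and 232 CPM (log2 fold change 0.27, SE 0.0555), with 5 of 6 D+Q-treated bladders above every untreated one. Vehicle-treated bladders were at 172 to 215 CPM and water-treated bladders at 177 to 208 CPM, so some of both also lay above every untreated bladder. Htr1b, a serotonin receptor, was at 1.45, 1.57 and 2.06 CPM against 2.05, 2.43 and 2.72 CPM (log2 fold change 0.55, SE 0.110). Upk3bl, a uroplakin-like gene, was at 0.62 (SE 0.149), and Ptpru, a receptor phosphatase, at 0.21 (SE 0.0470).

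**Figure D4:**
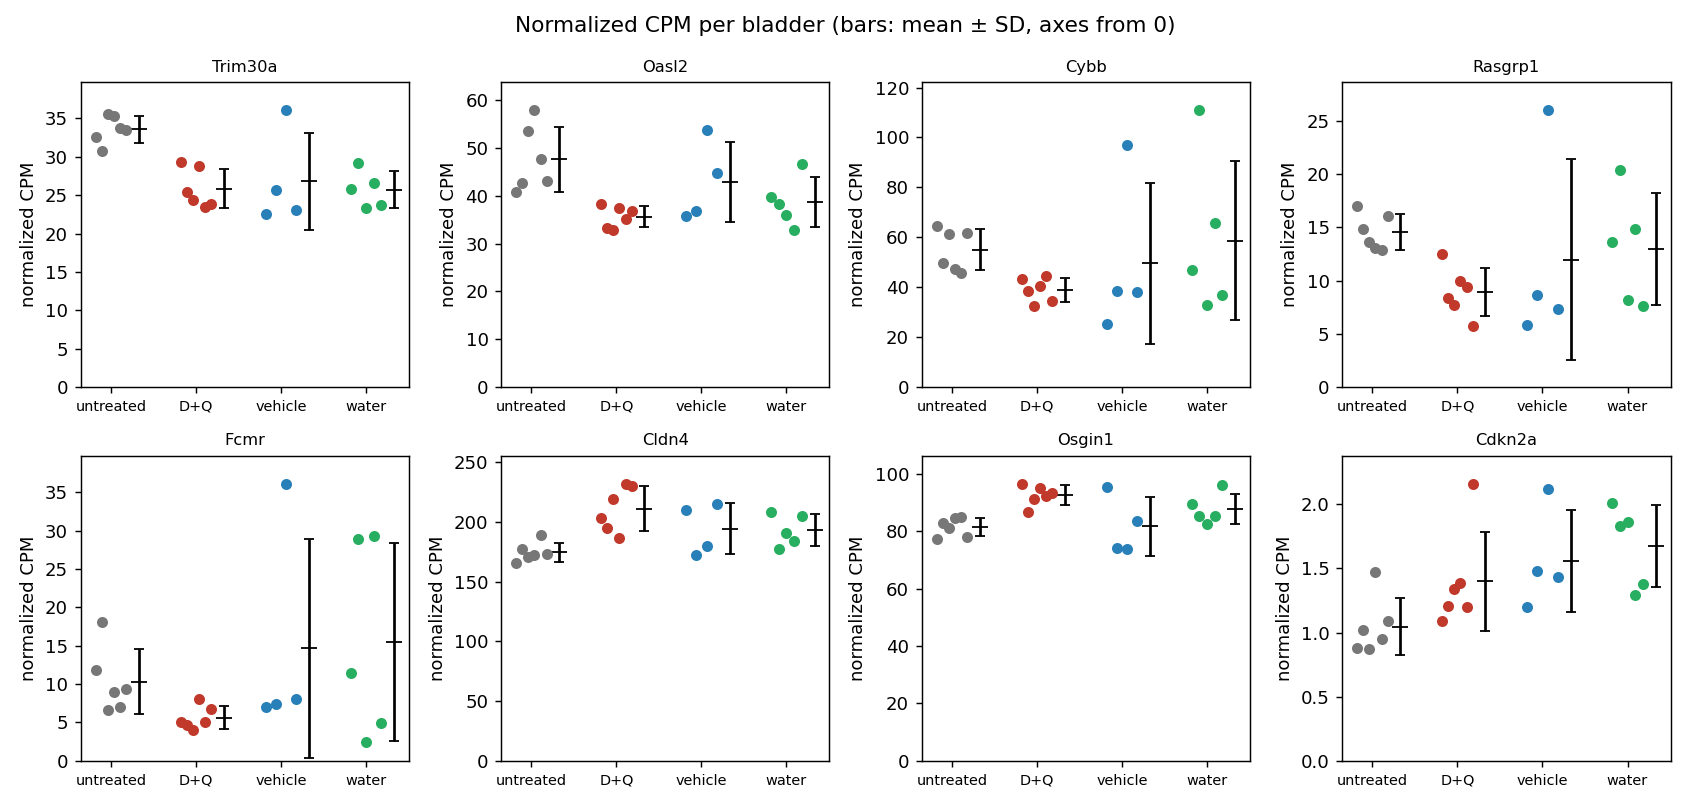
Normalized CPM (vertical axes, from 0) of 8 genes, 1 point per bladder in untreated, D+Q-treated, vehicle-treated and water-treated old bladders, with bars for mean ± SD. Trim30a, Oasl2, Cybb and Rasgrp1 are lower and Osgin1 higher in all 6 D+Q-treated than in all 6 untreated bladders, Cldn4 overlaps in 1 D+Q-treated bladder, and 1 vehicle-treated bladder is far above the others for Fcmr, Rasgrp1 and Cybb.

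Senescence genes, which the treatment is meant to reach, were next. Of 14 senescence and secretory markers in a panel of RT-qPCR assays, 10 were tested here, with 2 lower, 1 higher and a median of -0.26. Cdkn2a, which encodes p16, was the higher one, at 0.869, 0.981 and 1.47 CPM in untreated and 1.09, 1.27 and 2.16 CPM in D+Q-treated bladders (log2 fold change 0.42, SE 0.186, adjusted p = 0.368, exact permutation p = 0.0433), with 1 D+Q-treated bladder above every untreated one and the others within the untreated range. It was at 0.57 with vehicle and 0.67 with water against untreated bladders and at -0.16 in D+Q against vehicle. Tnf was at 0.822, 1.61 and 2.06 CPM against 0.697, 0.811 and 1.48 CPM (log2 fold change -0.72, SE 0.236), and Il10, an anti-inflammatory cytokine, at 0.631, 0.764 and 1.80 CPM against 0.190, 0.543 and 0.725 CPM (log2 fold change -0.96, SE 0.322). Beside the panel median of -0.26 with D+Q, vehicle and water against untreated bladders gave -0.19 and -0.25. D+Q against vehicle and against water gave panel medians of -0.027 and -0.10.

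The other panel members did not reach an unadjusted p of 0.05. Their log2 fold changes were 0.055 for Cdkn1a (p21), -0.39 for Ccl2, -0.82 for Ccl3, -0.50 for Il1b, -0.13 for Mmp3, -0.11 for Ptgs2 and 0.033 for Tgfb1, while 4 others were left out by the count filter, namely Il6, Cxcl1, Mmp13 and Csf2, with group medians of at most 0.271 CPM. Cyclin-dependent kinase inhibitors and cyclin D genes had 0 of 10 lower and 1 higher (Cdkn2a again), with Ccnd1 at 87.5, 108 and 126 CPM against 84.3, 108 and 128 CPM (log2 fold change -0.022, SE 0.109). The p53 targets had 0 of 17 lower and 3 higher (median 0.038), namely Plk2 (0.27, SE 0.0844), Gadd45a (0.16, SE 0.0654) and Phlda3 (0.14, SE 0.0573), and Ccng1, highest by TPM, was at -0.043.

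Lists of the drugs' own targets were read in the same way. Of 20 kinases that dasatinib inhibits, 7 were lower and 0 higher (median -0.11). The lower count was 4 without D+Q replicate 6 and 2 with all 6 groups in a single fit. Score medians were 5.31 after D+Q, 5.49 in untreated, 5.31 in vehicle-treated and 5.44 in water-treated bladders. The 7 lower kinases included Lck, Lyn, Blk and Btk, which are mainly kinases of blood cells, and the more widely expressed Fyn and Ddr2. Btk was at 7, 8.71 and 11.6 CPM against 4.64, 6.59 and 7.68 CPM (log2 fold change -0.53, SE 0.150) and Lck at -0.73 (SE 0.215), while Src (0.072), Abl1 (0.042), Epha2 (0.26) and Pdgfrb (-0.017) were among those that did not pass. In the BCL-2 family 5 of 17 were lower and 1 higher (median -0.018). Bcl2a1a, Bcl2a1b and Bcl2a1d, near-identical leukocyte paralogs whose reads may be split, were at -0.78, -0.70 and -0.54, Bid was at -0.18 (SE 0.0543), and Mcl1, highest by TPM, at -0.077 (SE 0.0709). PI3K and AKT signaling genes had 2 of 16 lower (Pik3cd and Pik3r5, median -0.052), with Akt1 at 0.0073. The aryl hydrocarbon receptor list had 0 of 8 in either direction (median -0.017), with Cyp1b1 at -0.21 (SE 0.224) and Aldh3a1 at 0.14 (SE 0.0811), and the NRF2 list had 1 of 16 higher, Gsta4, a glutathione transferase (0.18, SE 0.0613), with Nqo1 at 0.22 (SE 0.105).

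The structural tissue of the bladder differed little. In umbrella and superficial urothelium 3 of 13 genes were higher and 0 lower (median 0.10), 1 without untreated replicate 3 and 6 without D+Q replicate 1. The 3 were Foxa1 (0.15, SE 0.0451), Gata3 (0.11, SE 0.0427) and Krt18 (0.18, SE 0.0766), and Upk1a was at 0.10 (SE 0.0677). With each control bladder left out in turn, medians against untreated bladders were 0.027 to 0.073 for vehicle, with 1 to 3 higher. For water they were 0.08 to 0.14, with 2 to 5 higher. D+Q against vehicle ran from 0.0088 to 0.087 (0 to 2 higher) and D+Q against water from -0.02 to 0.028 (0 to 1 higher). In basal and intermediate urothelium 1 of 8 was lower (Krt14) and 1 higher (Shh, 0.14, SE 0.0593). Krt14 was at 0.343, 0.948 and 7.62 CPM against 0.275, 0.602 and 0.877 CPM (log2 fold change -1.69, SE 0.699), and 5 of 6 D+Q-treated bladders were within the untreated range (exact permutation p = 0.214). Detrusor genes had 1 of 14 higher, Tagln, an actin-binding protein (0.26, SE 0.0817), with Acta2 at 0.094 and a median of 0.0031.

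Chrm2, a muscarinic receptor of the detrusor, was the only 1 of 13 contraction receptors and channels that passed, at 39.3, 48.1 and 65.1 CPM in untreated and 31.2, 38.6 and 41.8 CPM in D+Q-treated bladders (log2 fold change -0.41, SE 0.114, adjusted p = 0.269), beside -0.28 with vehicle and -0.28 with water. Fibroblast genes had 2 of 12 lower (Dpt and Ly6a, median -0.038), collagens and matrix 3 of 18 (Fbn1, Col5a2 and Col5a1, median -0.077, 1 without D+Q replicate 2 and 8 without D+Q replicate 5), metalloproteinases and inhibitors 1 of 14 (Mmp19, median -0.061). Endothelial genes had 1 of 12 higher (Cldn5, median 0.020) and Schwann cell genes 1 of 9 higher (Sox10, median 0.10). Tissue that a dissected bladder may carry was also measured. Adipocyte scores ranged widely, from 2.14 to 4.92 after D+Q and 3.01 to 4.93 in untreated bladders, with 0 of 10 genes passing (median -0.37), and skeletal muscle genes had 1 of 11 lower and 2 higher (median -0.10), with Scn4a, a sodium channel, at -1.22 (SE 0.342). The part of these cell types in the differences above was not tested.

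Among genes of replication and mitosis, many were lower. Of 21 tested cell cycle genes 13 were lower and 0 higher (median -0.38), 7 without D+Q replicate 4 and 6 without untreated replicate 2. Bub1, a mitotic checkpoint kinase, was at 0.907, 1.07 and 1.98 CPM in untreated and 0.516, 0.605 and 0.786 CPM in D+Q-treated bladders without overlap (log2 fold change -0.91, SE 0.203, adjusted p = 0.233). Mki67, the proliferation marker, was at 10.7, 21.5 and 31.6 CPM against 10.4, 12.4 and 19.1 CPM (log2 fold change -0.69, SE 0.210) and Top2a at -0.74 (SE 0.228), while Pcna, highest by TPM, was at -0.037 (SE 0.0360). The list was at -0.27 with vehicle (0 of 21 lower) and -0.43 with water (3 of 21 lower), and D+Q against them gave -0.20 and -0.035. Without vehicle replicate 3 the vehicle median was -0.66 and D+Q against vehicle was 0.22, without vehicle replicate 1 they were -0.041 and -0.35, and without water replicate 2 the water median was -0.59 and D+Q against water was 0.16. The unfolded protein response list, which is high in secretory cells, had 9 of 16 lower (median -0.16), 4 without untreated replicate 6 and 5 without D+Q replicate 1, untreated replicate 1 or untreated replicate 2, with Hspa5, the chaperone BiP, at 372, 451 and 552 CPM against 371, 382 and 398 CPM (log2 fold change -0.26, SE 0.0799) and Calr at -0.15 (SE 0.0489). With the replicate number as a block, 4 of its members were lower. Vehicle against untreated bladders gave -0.11 with 1 lower, water gave -0.20 with 9 lower and 2 higher, and D+Q against them gave -0.031 and 0.014. Heat shock genes had 1 of 15 lower and 1 higher (median 0.016), Hsp90aa1 at -0.13 and Hspb1 at 0.11.

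Ribosomal protein genes were the largest group on the higher side. Of 79 cytoplasmic ribosomal protein genes 71 were higher and 0 lower at unadjusted p under 0.05, beside 6.24% of all genes, with a median of only 0.18 on the log2 scale. Scores were 8.71 to 9.09 (median 8.81) after D+Q and 8.62 to 8.76 (median 8.70) in untreated bladders, and the D+Q group was led by 2 bladders, replicates 3 and 6. Without D+Q replicate 6 the count was 29, without D+Q replicate 3 it was 32 and without untreated replicate 1 it was 39, and limma on the deposited normalized table gave 34. Fau, a ribosomal protein fused to a ubiquitin-like peptide, was at 329, 342 and 355 CPM in untreated and 363, 376 and 477 CPM in D+Q-treated bladders without overlap (log2 fold change 0.24, SE 0.0704), Rpl29 was at 0.18 (SE 0.0533) and Rplp1, highest by TPM, at 0.22 (SE 0.0809). The same list was at 0.19 with vehicle (72 of 79 higher) and 0.21 with water (76 of 79 higher), and D+Q against vehicle and water gave -0.0083 and -0.030 with 0 members past the threshold.

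Nuclear-encoded respiratory chain genes were also on the higher side. Of 36 complex I subunits 15 were higher and 0 lower (median 0.12), led by Ndufs7 (0.19, SE 0.0540), and of 36 subunits of complexes II to V 19 were higher and 0 lower (median 0.13), led by Uqcr10 (0.20, SE 0.0660). These counts were 5 and 4 without D+Q replicate 3, 4 and 5 without D+Q replicate 6, 6 and 7 without untreated replicate 1, 9 and 10 without untreated replicate 2, 9 and 6 without untreated replicate 5, 9 and 11 without untreated replicate 6, and complex I had 26 without D+Q replicate 1. Limma on the deposited table gave 5 and 6. Vehicle against untreated gave medians of 0.10 and 0.10 (17 and 20 higher), water 0.10 and 0.087 (22 and 20 higher), and D+Q against vehicle 0.021 and 0.017 (0 and 1 higher).

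Gene length moved with the result. In 5 equal groups of tested genes by exonic length, the median log2 fold change was 0.063, 0.031, 0.0089, -0.013 and -0.042 from the shortest to the longest. The group of the shortest genes held 49 of the 79 ribosomal protein genes, 23 of the 36 complex I genes and 22 of the 36 genes of complexes II to V. Vehicle and water against untreated bladders gave narrower ranges of the same direction, 0.033 to -0.024 and 0.031 to -0.021, and D+Q against vehicle 0.017 to -0.020. The part of length, or of the RNA quality it can follow, in these lists was not tested. The lymphocyte and interferon lists were not of 1 length class, with 6 of 17 T-cell, 5 of 15 B-cell and 6 of 25 interferon-stimulated genes among the shortest.

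**Figure D5:**
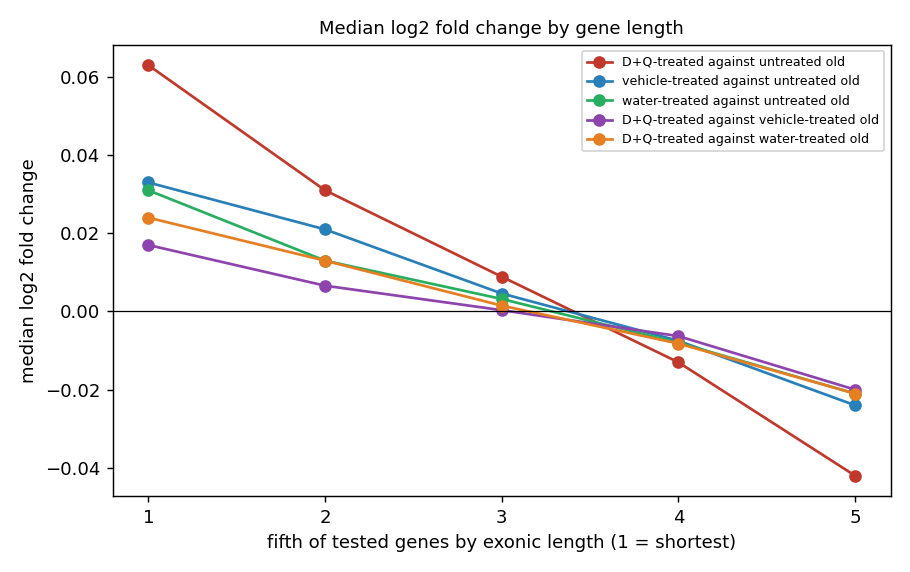
Median log2 fold change (vertical axis) of tested genes in 5 equal groups by exonic length (horizontal axis, 1 = shortest), with 1 line for each of 5 comparisons among old bladders. The line of D+Q-treated against untreated bladders runs from 0.063 to -0.042 and is the steepest of the 5.

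Mitochondrially encoded genes, the 13 respiratory chain genes of the mitochondrial genome, had another order among the groups. Against untreated bladders, D+Q had a median of 0.00026 with 4 of 13 higher, while vehicle had -0.30 with 8 lower and water -0.29 with 9 lower, and D+Q against them gave 0.30 and 0.27 with 9 and 10 higher and 0 lower. Scores were 7.94 to 8.20 with D+Q and 7.77 to 8.08 without treatment, but 7.40 to 7.86 with vehicle and 7.30 to 7.70 with water, so every D+Q-treated bladder lay above every vehicle-treated and water-treated one. Leaving out single gavaged controls kept the medians of D+Q against vehicle between 0.27 and 0.33 and against water between 0.23 and 0.32. mt-Co3, a subunit of cytochrome c oxidase whose exon overlaps mt-Atp6 on the same strand, was at 29.1, 36.4 and 41.8 CPM in untreated and 39.4, 45.0 and 61.4 CPM in D+Q-treated bladders (log2 fold change 0.44, SE 0.115), and mt-Co1, highest by TPM, at 0.00026 (SE 0.0460). The members differed among themselves, with mt-Nd3 at 0.39 (SE 0.142) against untreated and 1.17 against vehicle-treated bladders.

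The remaining lists of cell processes had few members past the threshold. Clock genes had 2 of 17 lower, Arntl (-0.51, SE 0.167) and Clock (-0.19, SE 0.0798), and 1 higher, with a median of 0.15, beside 0.18 with vehicle and 0.30 with water, where 3 were lower and 10 higher. Immediate early genes, which respond within minutes to handling, had 1 of 17 higher (Ier3, 0.36, SE 0.151; median 0.051), beside -0.44 with vehicle, where 7 were lower. Glucocorticoid response genes had 0 of 13 in either direction (median 0.019), with Mt1 at 0.20 (SE 0.102). Cholesterol synthesis had 3 of 16 higher and 0 lower (median 0.090), Mvd (0.20, SE 0.0741), Insig1 (0.16, SE 0.0594) and Hmgcs1 (0.13, SE 0.0540), beside 11 higher with water.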

How the data were processed

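RNA sequencing counts of whole bladders were analysed for 6 D+Q-treated and 6 untreated old mice, with 4 vehicle-treated and 5 water-treated mice beside them, grouped by the sample labels. The authors made TruSeq stranded total RNA libraries, aligned the reads to mm10 with STAR 2.7.3 and counted them per gene with featureCounts of the Subread package (submitters' processing notes), and the deposited counts are not normalized. The authors' second table, deposited as TPM, holds log2 values of (count + 1) per exonic base, scaled to sum to 100000 in each bladder before the log. The authors also deposited each gene's exonic length in bases. The strand setting of counting and the edgeR test of the study are not given in the sources used here.

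Here edgeR 4.0.16 (R 4.3.3) fitted each pair of groups with TMM factors, filterByExpr and the quasi-likelihood test, with Benjamini-Hochberg adjustment and a threshold of 0.05. CPM used TMM factors over all 32 libraries, and list scores are means of log2(CPM + 0.1). Single genes also had a two-sided exact permutation test over 924 divisions of the 12 bladders. The 46 lists (743 genes, 2 not matched by symbol) and the comparison were chosen with earlier results of these data known, so lists are described by counts and medians. Named genes are the 12 lower and 12 higher with the smallest p at a mean of at least 1 CPM (without predicted genes and variable segments), the 3 members of each list with the smallest p and its member with the highest TPM, and the study's senescence panel; other members are named where a count is listed, chosen after their values were seen. Alternatives were DESeq2 1.42.0, limma 3.58.1 on the deposited log2 table, other factors, filters and fits, a replicate block and each bladder left out. In simulated counts of D+Q-treated against untreated bladders (17037 genes, 200 changed), edgeR recovered 95% and DESeq2 96% of genes changed by 1 on the log2 scale, with 10 and 38 calls on unchanged genes. The changed genes were drawn from better counted ones only, and each gene was simulated on its own. These shares therefore do not say how many such changes the tests would find in the bladders themselves. Plots were drawn with matplotlib 3.10.9 in Python 3.11.15. A few list members are not reported here by name.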

Additional observations from a re-analysis of the deposited data

Results flagged for a closer look

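Of 140 sets of 6 bladders examined (46 list scores and 24 named genes in the D+Q-treated and the untreated group), 7 held a bladder whose gap to the next was large against the group's whole range, and chance flags about 1 in 20. In the D+Q group these were replicate 6 for plasma cell genes (score 3.83, the others 4.36 to 4.66), replicate 5 for collagens and matrix (8.86, the others 8.62 to 8.69) and replicate 3 for mitochondrially encoded genes (8.20, the others 7.94 to 8.02). In the untreated group they were replicate 3 for p53 targets (5.17, the others 5.22 to 5.25), replicate 4 for PI3K and AKT signaling (5.95, the others 6.02 to 6.06), replicate 5 for basal and intermediate urothelium (6.84, the others 6.08 to 6.37) and replicate 6 for matrix metalloproteinases and inhibitors (5.30, the others 5.13 to 5.19). None of the 24 named genes had such a bladder.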

How the results depend on the processing

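Single genes passed an adjusted p of 0.05 under 2 alternatives, 185 genes with DESeq2 and 22 with edgeR's likelihood ratio test, and 0 under the others, including each bladder left out (0 to 0). All 6 groups in a single fit gave 674 lower genes at unadjusted p under 0.05. The higher genes were 570 with the likelihood ratio test, 456 and 451 with limma on log2(TPM + 1) and log2(TPM + 0.1), where 72.3% and 72.6% of the genes past the threshold were lower against 51.7% in the edgeR fit and the median of all genes was -0.023 and -0.027. Genes without overlap on the higher side were 18 on either deposited scale. Leaving out single bladders gave 810 to 1550 lower and 597 to 1611 higher genes (597 without D+Q replicate 6, 613 without D+Q replicate 3, 1611 without D+Q replicate 1) and 69 to 172 lower and 50 to 146 higher genes without overlap. The replicate block gave 1145 lower and 955 higher genes. No pairing by replicate number was seen, as same-numbered deviations correlated at -0.31 to 0.16 and 0 of 6 correlated best with their own number. A shared cage, day or batch is not given by the labels and was not tested. For the gavaged controls, leaving out each bladder in turn (chosen after seeing the data) gave, at adjusted p, 0 to 0 genes for vehicle, 37 to 199 for water, and 0 to 0 and 0 to 3 for D+Q against each. At unadjusted p these were 447 to 1166 lower and 541 to 1193 higher for vehicle, 1176 to 1738 and 988 to 1637 for water, 267 to 772 and 267 to 781 for D+Q against vehicle, and 416 to 730 and 637 to 883 for D+Q against water. Of 46 list medians, 32 kept 1 sign under all 22 alternatives. The neutrophil median was -0.31 with at least 10 counts in every bladder, where fewer of its genes were tested, and the p53 median was -0.010 to 0.079 without single bladders. With all 6 groups in a single fit, fewer list members passed, 1 of the B-cell identity genes, 2 of the cell cycle genes, 3 of B-cell receptor signaling, 0 of the lymphoid chemokines, 5 of MHC class II and 7 of the T-cell checkpoint genes among those lower. Of the dasatinib target kinases and of the BCL-2 family, 2 each were lower in that fit. Of the nuclear factor kappa B targets and of the unfolded protein response, 4 each were lower. The cause was not tested. Depth limits genes near the floor, such as Il6, which were not tested.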

Other observations

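Gene families with names that recurred among the leading genes were counted over all their members, chosen after their values were seen. Because leading genes picked the families, high counts were built into the choice. Over all tested genes, 6.67% were lower and 6.24% higher in D+Q-treated than in untreated bladders at unadjusted p under 0.05. The same shares were 3.77% and 4.63% with vehicle and 8.13% and 7.87% with water. Guanylate-binding proteins, which interferon gamma induces and which attack pathogen vacuoles, had 9 of 9 tested members lower in D+Q-treated than in untreated bladders at unadjusted p under 0.05, with a median log2 fold change of -0.41. Their medians were -0.44 with vehicle (5 of 9 lower) and -0.34 with water (6 of 9 lower), and 0.021 in D+Q against vehicle. Immunity-related GTPases, of the same response, had 8 of 8 lower with a median of -0.65, and DESeq2 called all 8. Their medians were -0.64 with vehicle (8 of 8 lower) and -0.50 with water (7 of 8 lower). Iigp1 was at 28.6, 46.4 and 67.3 CPM (lowest, median and highest) in untreated and 22.4, 30.0 and 31.5 CPM in D+Q-treated bladders, so the groups overlapped. The Ifi200 family of DNA sensors had 11 of 12 lower with a median of -0.52, beside -0.36 with vehicle (1 of 12 lower) and -0.39 with water (8 of 12 lower).

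GIMAP GTPases, which lymphocytes express, had 8 of 8 lower with a median of -0.50, beside -0.23 with vehicle and -0.16 with water, where 0 were lower at unadjusted p under 0.05, and D+Q against vehicle and water gave -0.36 and -0.38 with 0 lower in each. Gimap4 was at 32.4, 47.8 and 58.6 CPM in untreated and 23.5, 28.4 and 35.2 CPM in D+Q-treated bladders (log2 fold change -0.65). Toll-like receptors had 5 of 12 lower (median -0.20), beside -0.17 with vehicle (0 of 12 lower) and -0.22 with water (3 of 12 lower). Schlafens had 4 of 7 lower (median -0.31), beside -0.27 with vehicle and -0.25 with water, with 2 of 7 lower in each. For these 2 families, D+Q against vehicle gave -0.076 and -0.0037, and D+Q against water gave -0.043 and -0.075. Claudins, the proteins of tight junctions, had 4 of 11 higher and 0 lower, Cldn4, Cldn23, Cldn7 and Cldn5, at 0.27, 0.29, 0.25 and 0.27, beside 3 higher and 1 lower of 12 with vehicle and 4 higher with water.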
